A study of Daphnia magna with 20 samples.

Results

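The genes described here are 100 gene models of the water flea *Daphnia magna* whose signal was high in juveniles (J) and low in every other life stage sampled. They were chosen from 40786 gene models with at least 3 probes. For each gene model the 7 stage values were put in order on the authors' normalized log2 scale, and the widest gap between neighbours split the stages into a high and a low set. J stood alone in the high set of 587 gene models (1.44% of 40786), and in 502 of these at least 2 probes were marked well above background on at least 2 J arrays. The 100 members are those with the widest gaps among the 502, and they are named below by their rank in that order. The signal in J against the other stages was used to choose them, so it is given as a description, with no test.

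Whole animals of a single laboratory clone (Clone F), kept by parthenogenesis, were measured on single-colour Agilent arrays, 1 RNA sample to an array. J were juveniles 4 days old without a visible ovary (3 arrays), so that the stage represents a feeding animal before reproduction. The other stages were early embryos labelled under 12 h old (E1, 3 arrays), late embryos labelled 60 h old, shortly before release from the brood pouch (E3, 3 arrays), and reproductive females labelled 15, 16 and 18 days old at the beginning, middle and end of an intermoult cycle (F1, F2 and F3, 3 arrays each). Males (M, 2 arrays) were labelled 16 days old and came from mothers exposed to methyl farnesoate, a crustacean hormone that makes them bear sons. Embryos had been flushed from the brood pouch of the females before sampling. In whole animals, fewer cells of a type and less RNA per cell cannot be told apart.

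Growth in *Daphnia* proceeds through moults, in which the old cuticle is shed and a new one is secreted beneath it. Juveniles moult at short intervals without reproducing, whereas in adult females each moult is coupled to the release of a brood and the laying of the next clutch. Late embryos shed their egg membranes before they become swimming neonates.

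The array labels the members only by assembly identifiers, and the table of gene names used here matched none of them. The annotation of the array design was not used here, so no function is given for any member. The member of rank 1 is velh8ptf216k27Loc61t1 and the member of rank 2 is dmag2vel4f4xincok59Loc30035t1. By their identifiers 2 loci contributed 2 members each and no locus contributed more. In 96 members there were 4 probes and in 4 members there were 3. The J mean was the highest of the 7 stages on 363 of the 396 probes, on every probe in 69 members and on all but 1 probe in 29 more. No spot of a member was saturated.

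The 20 arrays lay on 5 slides. J replicates 1 and 3 shared slide 2 with E1 replicate 3 and M replicate 2, and J replicate 2 shared slide 5 with E3 replicate 1, F1 replicate 2 and F2 replicate 2. The 4 arrays of slide 1 (E1 replicate 2, E3 replicate 2, F1 replicate 3 and M replicate 1) stood apart, with a background of 6.86 to 7.47 on the log2 scale, against 5.33 to 6.27 on the other arrays. Background here is the 95th percentile of the random probes of an array. Values below are log2 signals after quantile normalization, as the median over the probes of a gene model.

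The gap between J and the next-highest stage was 1.16 to 4.32 log2 units, with a median of 1.74 (2.24-fold to 19.9-fold, median 3.33-fold). It fell off without a step at the limit. Ranks 98, 99 and 100 had gaps of 1.17, 1.16 and 1.16, and the 3 gene models just outside had gaps of 1.15, 1.14 and 1.14. The next-highest stage was E3 for 33 members, M for 29, F1 for 21, E1 for 7, and F2 and F3 for 5 each. The lowest stage was F3 for 38 members and E1 for 26. J therefore stood above different neighbours in different members, most often late embryos, males or females that had just moulted.

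**Figure D1:**
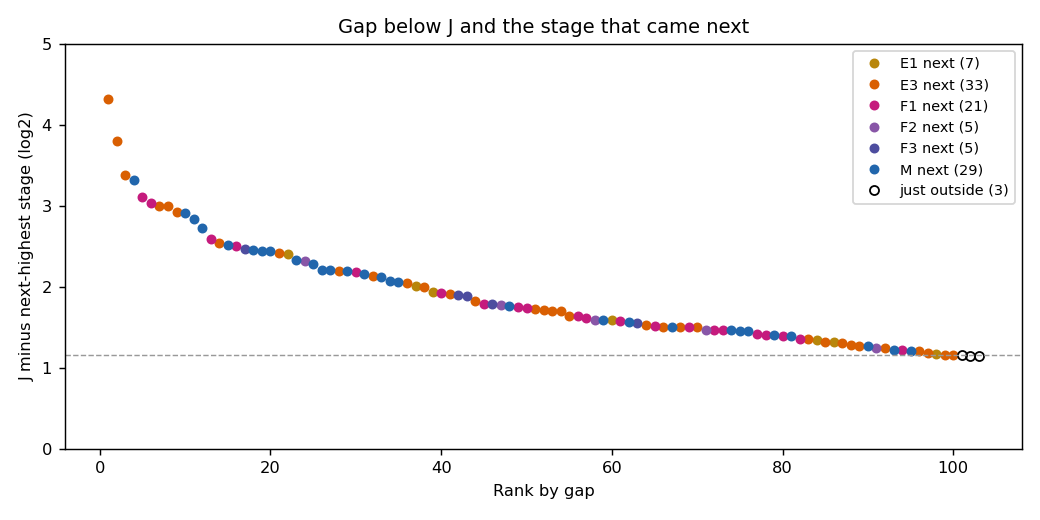
Gap between the J mean and the next-highest stage mean (y axis, log2 units, the authors' normalized values) for the 100 members in order of rank (x axis), coloured by the stage that came next, with the 3 gene models just outside as open circles. The gaps narrow smoothly from 4.32 to 1.16, and E3 and M are the most frequent neighbours.

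The member of rank 1 showed the widest gap. Its log2 signal was 12.73, 12.28 and 11.95 in J, against 5.49, 9.46 and 9.04 in E3, 8.59, 6.85 and 7.69 in F1, and 4.68 and 9.63 in M. In F3 it was 3.37, 3.46 and 3.16 and in E1 3.90, 4.44 and 3.73, below the background of each of those arrays. The 3 J arrays lay above all 17 others, but E3 and M each held replicates that differed by more than 3 log2 units.

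Rank 2 had 12.72, 12.43 and 11.05 in J, against 3.00, 10.67 and 11.10 in E3. All other arrays were at most 6.12, so 2 of the 3 late-embryo samples were close to juveniles and the third was not, and the groups overlapped, since E3 replicate 3 lay above J replicate 3. In both E1 and F3 no array marked its signal as well above background. J was at least 74.4-fold higher than E1 and at least 194-fold higher than F3, where the J mean is set against the higher of the lowest well-above-background signal and the gene model's own signal on each dim array.

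Rank 3 had 14.00, 14.11 and 13.09 in J, against 8.58, 11.60 and 11.94 in E3 and 5.84 and 14.49 in M. M replicate 2 thus lay above every J array while M replicate 1 lay below its background. A similar split of the male arrays was seen at ranks 7, 8 and 10. Rank 10 had 12.23, 12.30 and 11.22 in J, against 4.69 and 13.09 in M, and the member of rank 7 had 13.44, 12.97 and 12.40 in J, against 4.44 and 12.14 in M. Rank 8 had 13.42, 12.90 and 12.51 in J, against 5.20 and 11.99 in M.

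At ranks 4 and 5 newly moulted females came closer to J, but a male array at rank 4 and a late-embryo array at rank 5 came as close. The member of rank 4 had 11.76, 11.82 and 11.65 in J, against 8.72, 8.26 and 8.61 in F1, 8.96 and 7.87 in M, and 3.11, 4.20 and 3.39 in F3. Rank 5 had 9.96, 10.31 and 10.68 in J, against 7.98, 7.46 and 6.10 in F1 and 3.69, 2.86 and 3.20 in F3. Its values were 3.29, 8.01 and 7.85 in E3 and 5.16 and 7.31 in M. In both members, F1 held an intermediate level and females at the end of the cycle were below background, as was F1 replicate 3 at rank 5. The members of rank 6 and 9 were dimmer, with 7.87, 7.69 and 7.77 and with 9.53, 9.44 and 8.87 in J.

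**Figure D2:**
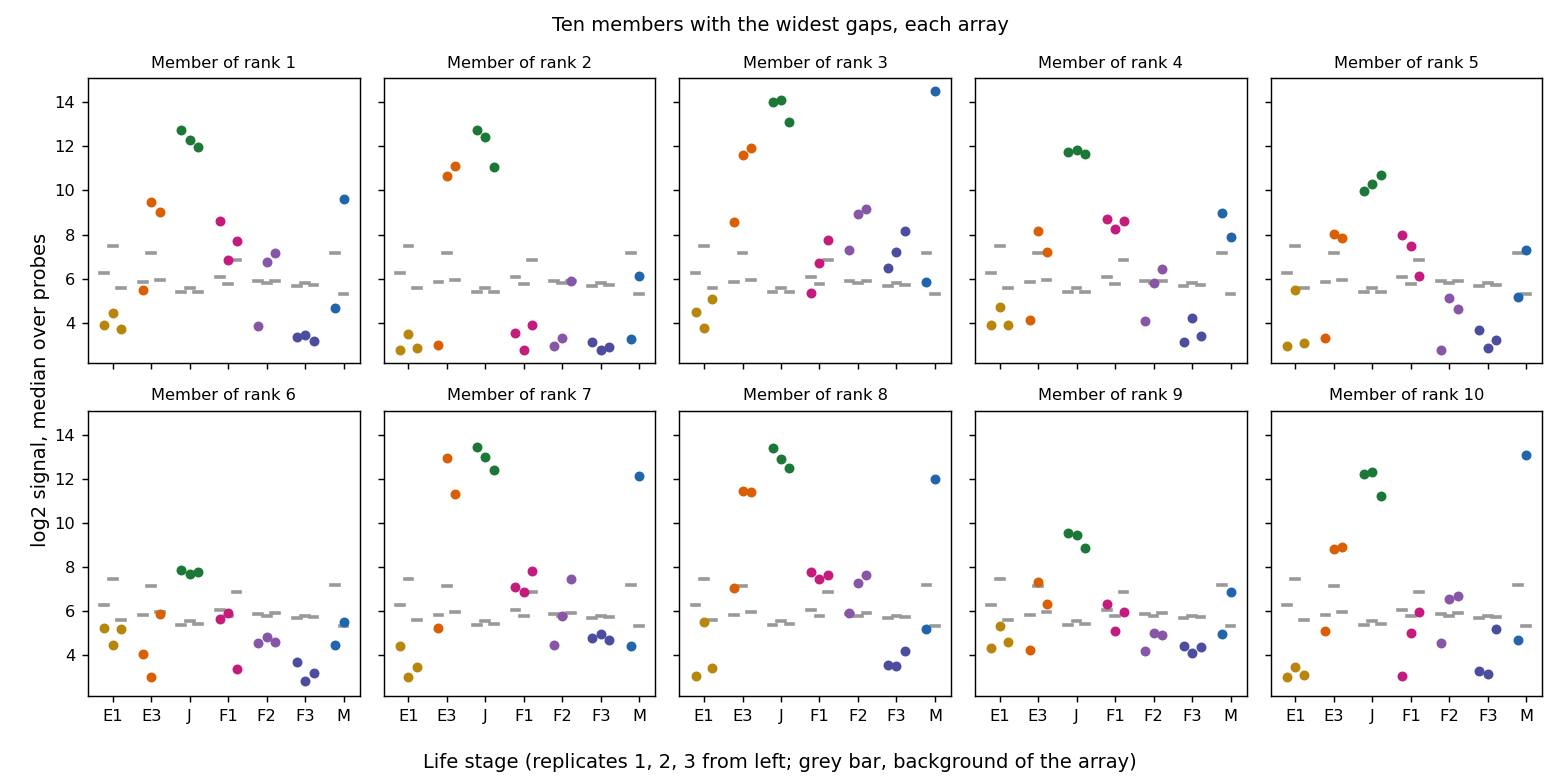
Log2 signal (y axis, median over probes) of the 10 members with the widest gaps on each array, by life stage (x axis), with replicates 1, 2 and 3 from left to right and a grey bar at the background of each array. J arrays are high in each panel, E3 replicate 1 lies below the other E3 replicates in all panels but that of rank 6, and the M arrays lie far apart at ranks 1, 3, 7, 8 and 10.

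Over the 100 members, the median difference between the J mean and the stage mean was 2.21 log2 units for E3, 2.33 for F1, 2.33 for M, 3.12 for E1, 3.14 for F3 and 3.17 for F2. The spread among the J replicates was small beside this, with an SD of 0.0468 to 0.902 and a median of 0.304 (n = 3). On every J array 92 members lay above background, against 19 on every F1 array, 12 on every F2 and every F3 array, 11 on every E3 array, 4 on both M arrays and 1 on every E1 array. In 67 members J was the only stage with all arrays above background, and 8 members reached it in no stage. A stage with 1 dim array counts as below background here.

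All 3 J arrays lay above all 17 others in 71 of the 100 members. Among the 92 members that passed the filter on dim genes this count was 65, and 1.52% of all 18654 gene models that passed showed the same separation. Since the choice of members used this difference, nothing is read from that contrast. In the remaining 29 members an array of another stage reached the range of the J arrays, and in 14 of them it exceeded the highest J array. These arrays were mainly M replicate 2 (12 members), E3 replicate 2 (11 members) and E3 replicate 3 (10 members). M replicate 2 exceeded every J array in 9 members, among them ranks 3, 10, 18, 19 and 20. The label "high only in juveniles" thus held for stage means in all members, and for single arrays in 71.

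The separation is also described within slides. The rule used these same arrays, so J above the others is largely fixed by the choice and nothing is read from it. On slide 2 the mean of the 2 J arrays lay above both other arrays, E1 replicate 3 and M replicate 2, in 90 members, with a median difference of 1.495 log2 units to the higher of them. On slide 5 J replicate 2 lay above E3 replicate 1, F1 replicate 2 and F2 replicate 2 in all 100 members, with a median difference of 2.02. When the rule was applied without 1 J array, that array lay above every other stage mean in 100, 99 and 99 of the 100 gene models so chosen (without J replicate 1, 2 and 3), by a median of 1.67, 1.70 and 1.76 log2 units. The array left out lay above all 17 arrays of the other stages in 82, 77 and 70 of these gene models. The arrays of the other stages, which also set the gap, were the same in each of these choices, so these counts are no test.

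Taken singly, 1998 of the 162718 gene-model probes (1.23%) had J alone in the high set and were marked well above background on at least 2 J arrays. The same held for 3 of the 2532 random probes (0.118%), which match no gene model. The mark alone was carried by 85384 gene-model probes and 170 random probes, so these 2 shares differ partly through it. Among probes marked well above background on at least 2 J arrays, a gap at least as wide as the narrowest of the members was found in 527 of 85384 gene-model probes (0.617%) and in 2 of 170 random probes (1.18%). These shares describe the signal that chose the members and nothing is read from them.

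The replicates of a stage did not hold the members at the same level, a measure that the rule did not use beyond the stage means. In E3, replicates 2 and 3 averaged higher than replicate 1 in 84 of 100 members, with a median difference of 1.20 log2 units and quartiles of 0.40 and 2.67. The difference exceeded 1 log2 unit in 58 members, against 4.98% of all tested gene models, whose median difference was −0.17. The largest difference in a member was 7.88. Only 11 members lay above background on every E3 array, against 52.2% of all tested gene models, so these shares set gene models of unlike signal side by side. Late embryos lay on 3 different slides, replicate 1 on slide 5, replicate 2 on slide 1 and replicate 3 on slide 3.

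Among males, replicate 2 was higher than replicate 1 in 79 members, with a median of 1.15 log2 units. The difference exceeded 1 in 52 members, against 27.7% of all tested gene models, whose median was 0.18. M replicate 1 lay on the dim slide 1 and M replicate 2 on slide 2 with 2 of the J arrays, and the part of the slide in this difference was not tested. In F2, replicates 2 and 3 averaged higher than replicate 1 in 79 members, by a median of 0.36, and by more than 1 in 23 members, against 1.45% of tested gene models. The F2 replicates 2, 3 and 1 lay on slides 5, 4 and 3. Again few members lay above background on every array of the stage, 4 in M and 12 in F2, against 51.5% and 78.7% of all tested gene models.

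Among F1 replicates the shift was smaller, with replicates 1 and 2 averaging above replicate 3 by a median of 0.35, against 0.11 over all tested gene models. The F3 and E1 replicates showed little shift in the median. F3 replicate 3 was above the mean of the other F3 replicates in 49 members, with a median of −0.03, and E1 replicates 1 and 3 averaged above E1 replicate 2 in 50, with a median of 0.05. These differences exceeded 1 log2 unit in 30 members in F1, 8 in F3 and 20 in E1, against 14.5%, 0.77% and 24.9% of all tested gene models. J replicates 1 and 2 averaged above J replicate 3 by more than 1 in 9 members, against 1.57%. The replicates set against each other were picked after their values were seen, so these differences are described and not tested.

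Across the 100 members the difference between E3 replicates correlated with that between F2 replicates (Pearson's r = 0.59) and less with that between M replicates (r = 0.20), and the M and F2 differences correlated with r = 0.34. Over the 18654 tested gene models the corresponding values were 0.29, 0.02 and 0.02. These are correlations across gene models that share the same arrays, so the gene models are not independent.

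**Figure D3:**
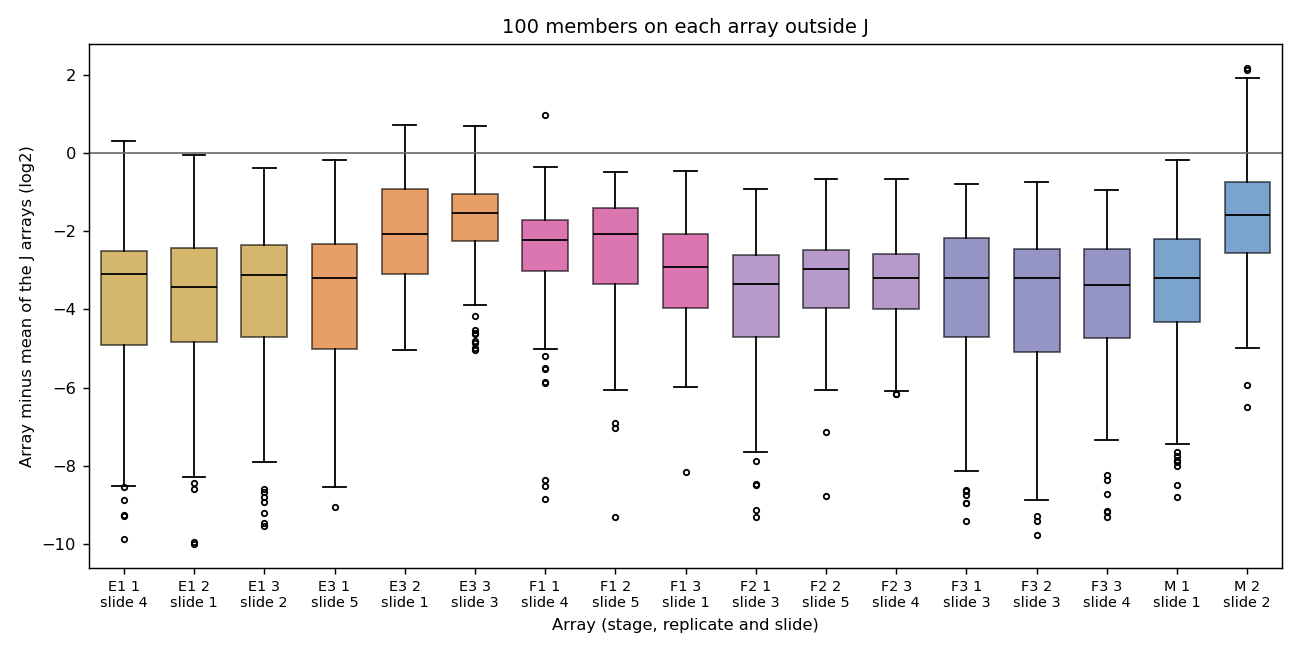
Log2 signal of the 100 members on each of the 17 arrays outside J, minus the mean of the J arrays (y axis, boxes with median and quartiles, whiskers to 1.5 times the interquartile range, circles beyond). E3 replicate 3, M replicate 2, F1 replicate 2 and E3 replicate 2 lie closest to J, with medians of −1.55, −1.60, −2.08 and −2.08, whereas E3 replicate 1 and M replicate 1 lie as low as early embryos.

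**Figure D4:**
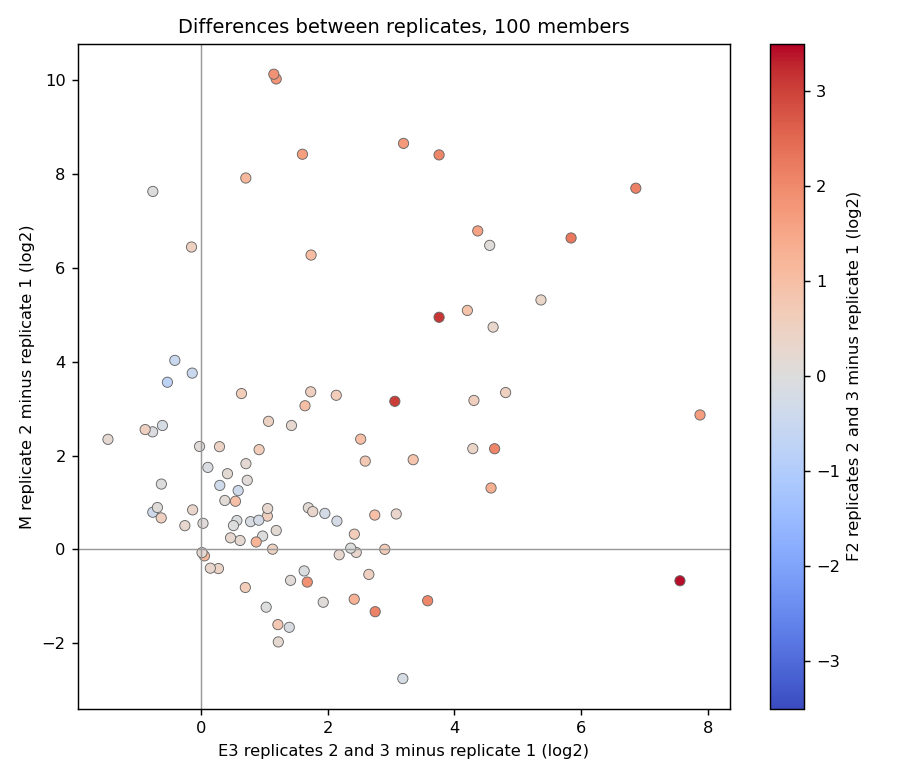
Difference between E3 replicates 2 and 3 (mean) and replicate 1 (x axis) and between M replicates 2 and 1 (y axis), in log2 units, for the 100 members, coloured by the difference between F2 replicates. Most members lie right of and above zero, and high F2 differences (red) fall mainly on the right.

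Some members rose and fell together outside J. Over the 17 arrays of the other stages the 4950 pairs of members had a median Pearson's r of 0.30, and 8 pairs, formed by 14 members, exceeded 0.95. The closest were ranks 18 and 19 (r = 0.993), 7 and 21 (0.985), and 5 and 11 (0.983). Rank 18 had 3.59 and 13.61 in the M arrays and 6.13, 8.02 and 6.62 in the E3 arrays, and the member of rank 19 had 3.66 and 13.78 in M and 6.35, 8.17 and 6.81 in E3. Both were thus near J on a single male array and not in late embryos. The members of rank 7 and 21 shared another pattern, near J in both M replicate 2 and E3 replicates 2 and 3. Rank 21 had 12.68, 12.15 and 11.50 in J, against 5.86, 12.60 and 10.82 in E3. By their identifiers none of these pairs came from a single locus, but whether different assembly identifiers name the same gene was not tested. Whether the probes of 1 gene model bind the transcript of another was not tested.

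A set of 4 comparisons that leave out J asked how the members differed among the remaining stages, with gene models called at a limma adjusted p under 0.05 and at least 1.5-fold. Of the 100 members 92 could be tested, and 8 (ranks 50, 58, 68, 74, 77, 85, 86 and 100) did not pass the filter on dim genes. Of the 92, 67 passed only through J, so most members were not above background on all arrays of any stage compared.

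Newly moulted females (F1) were compared with the later females. In F1, 21 of 92 members were higher than in the mean of F2 and F3 and none was lower, where 8.66% of all tested gene models were called higher and 7.69% lower. The median difference of the members was 0.82 log2 units, against −0.11 over all tested gene models, and all 35 members with an unadjusted limma p under 0.05 were higher. The methods' t-test with Benjamini-Hochberg adjustment called 26 higher and 0 lower. Among the 25 members above background in at least 1 of the stages compared, 8 were higher, against 8.91% of all such gene models. The count was 6 without F1 replicate 2, 9 without F1 replicate 1, 10 without F2 replicate 1, 11 without F3 replicate 3, 12 without F2 replicate 3 or F3 replicate 2, and 13 without F1 replicate 3, while it was 39 without slide 1.

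The largest difference was that of the member of rank 16, which had 10.83, 10.33 and 9.48 in F1, against 3.38, 7.09 and 6.52 in F2 and 3.95, 2.93 and 3.39 in F3 (log2 difference 5.67, SE 1.27, limma adjusted p = 0.00493). The groups did not overlap, although F2 replicate 1 lay with F3. Rank 13 had 9.70, 9.38 and 9.86 in F1, against 4.88, 7.47 and 6.54 in F2 and 4.76, 4.31 and 5.47 in F3 (difference 4.07, SE 0.64, limma adjusted p = 0.00026). For the member of rank 4, whose values are given above, the difference was 4.02 (SE 0.67, limma adjusted p = 0.000464). Ranks 16, 13 and 4 lay below background on F2 replicate 1 and on every F3 array. The sizes of these differences are therefore not measured folds.

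A descending order through the female cycle, F1 above F2 above F3, was the most frequent one among the members. It was found in 45 of 92 (48.9%), against 15.9% of all tested gene models, in which the reverse order was the most frequent (33.2%, against 7 members). Most of these members were not above background on all arrays of any female stage. Among the 25 members above background on every array of a female stage the descending order was found in 12, against 15.0% of all such gene models. F1 was highest in 65 members, 45 in this order and 20 with F3 above F2, against 15.9% and 14.0% of all tested gene models. The median step was 0.74 log2 units between F1 and F2 and 0.18 between F2 and F3, against −0.04 and −0.19 over all tested gene models. Slides 4 and 5 held F1 together with later females, and most members were higher in F1 in both. On slide 4 F1 replicate 1 was set against the mean of F2 replicate 3 and F3 replicate 3. The median difference was 0.95 (72 of 92 members positive, against 47.3% of all tested gene models). On slide 5, which held no F3 array, it was 0.79 between F1 replicate 2 and F2 replicate 2 (73 of 92, against 58.0%). As these counts take in members not above background on all arrays of any female stage, nothing is read from the counts.

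Late embryos were compared with early ones. In E3, 35 members were higher than in E1 and 4 were lower, where 31.1% of all tested gene models were called higher and 38.0% lower. The median difference was 1.34, against −0.27 over all tested gene models, and 42 members had an unadjusted p under 0.05. The count was 23 without E3 replicate 2 or 3, and when arrays were only shifted to a common 75th percentile 14 members were higher and 9 lower. In the main analysis 11 members lay above background on every array of E3 or E1, and 7 of them were called higher, against 36.3% of all such gene models. On slide 1, which held 1 array of each stage, E3 replicate 2 was higher than E1 replicate 2 in 71 of 92 members, against 44.6% of all tested gene models. The median difference of the members there was 1.63. Of all members, only 1 lay above background on E1 replicate 2 and 32 on E3 replicate 2. The count thus rests mostly on signal below background, and nothing is read from it.

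Rank 3 had the largest difference, with the E3 values given above against 4.47, 3.74 and 5.07 in E1 (difference 6.28, SE 1.497, limma adjusted p = 0.00144). The member of rank 7 had 5.25, 12.94 and 11.30 in E3, against 4.43, 3.00 and 3.48 in E1 (difference 6.20, SE 1.72, limma adjusted p = 0.00441). Rank 8 had 7.05, 11.44 and 11.39 in E3, against 3.07, 5.50 and 3.41 in E1 (difference 5.97, SE 1.34, limma adjusted p = 0.000889). In each case 2 E3 replicates carried most of the difference. These members lay below background on every E1 array, and rank 7 also on E3 replicate 1. The sizes of these differences are therefore not measured folds. Of the members called lower, ranks 46 and 30 fell by 1.59 and 1.30 on the log2 scale, and both were below background on all E3 arrays. Among the E1 arrays, rank 46 was above background only on replicate 3, and rank 30 only on replicates 1 and 3. Rank 46 lost its call without E1 replicate 1 (difference −1.38) or E1 replicate 3 (−0.97). Rank 43 was also called (limma adjusted p = 0.0462) but was not well above background on any E3 array, so no fold is given, and it lost its call without most single arrays.

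Late embryos were next compared with all females. In E3, 25 members were higher than in the mean of F1, F2 and F3 and 7 were lower, where 25.7% of tested gene models were called higher and 30.2% lower. The share of members called higher (27.2%) was thus near that of all gene models, although the median difference was 0.82, against −0.06. Among the 25 members above background in at least 1 of the stages compared, 6 were higher and 5 lower, against 26.1% and 33.4% of all such gene models. The count rested on the replicates, with 8 members called higher without E3 replicate 2, 9 without E3 replicate 3, and 45 without E3 replicate 1. Within slides the direction differed. The female stages present differed between slides too, so the medians are not of the same comparison. On slide 1 the median was 0.88 (E3 replicate 2 minus F1 replicate 3). On slide 3 it was 2.13 (E3 replicate 3 minus the mean of F2 replicate 1 and F3 replicates 1 and 2). On slide 5 it was −0.69 (E3 replicate 1 minus the mean of F1 replicate 2 and F2 replicate 2). There 21 of 92 members were positive, against 50.6% of all tested gene models. Most members lay below background on each of the arrays compared on slide 5, so nothing is read from this count.

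Rank 2, described above, was higher in E3 by 4.79 (SE 1.24, limma adjusted p = 0.00336), but it passed the filter only through J and lay below background on E3 replicate 1 and on all female arrays. Rank 21 was higher by 4.04 (SE 1.22, limma adjusted p = 0.00957) and rank 8 by 3.85 (SE 1.09, limma adjusted p = 0.00643). These calls of ranks 21 and 8 were lost without E3 replicate 2 (differences 2.62 and 3.11) or E3 replicate 3 (3.51 and 3.14). The members called lower behaved in another way. Rank 46 had 3.76, 4.19 and 4.46 in E3, against 6.43, 7.44 and 6.52 in F1, 6.23, 6.25 and 6.11 in F2, and 6.92, 7.66 and 6.97 in F3 (difference −2.59, SE 0.43, limma adjusted p = 7.86e-05). The replicates were close and the groups did not overlap, but all 3 E3 values lay below background, so the size of the difference is not a measured fold. Rank 40 had 4.66, 4.80 and 4.57 in E3, against 6.13 to 7.22 in the 9 female arrays (difference −1.86, SE 0.24, limma adjusted p = 7.01e-06), and its E3 values were below background as well. Rank 43 was called lower too (limma adjusted p = 0.00147), with no E3 array well above background. At rank 46 juveniles had 8.84, 8.94 and 9.38, and at rank 40 they had 8.22, 8.41 and 8.74, so these members combined a moderate level in females with the juvenile maximum.

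Males were compared with all females. In M, 13 members were higher than in the mean of F1, F2 and F3 and 3 were lower, where 14.5% of tested gene models were called higher and 25.8% lower, so the share called higher (14.1%) was near the background. Among the 25 members above background in at least 1 of the stages compared, 2 were higher and 3 lower, against 15.1% and 29.0% of all such gene models. The result turned with the male array used. Without M replicate 2, 5 members were higher and 11 lower, with a median difference of −0.23, and without M replicate 1, 29 were higher and 1 lower, with a median of 1.34. The count was 21 without E3 replicate 1, which enters through the shared spread, and it was 37 higher and 2 lower under the 75th percentile shift. On slide 1, M replicate 1 was higher than F1 replicate 3 in 34 of 92 members, against 42.9% of all tested gene models. Of all members, 4 lay above background on M replicate 1 and 20 on F1 replicate 3, so nothing is read from this count.

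Ranks 10, 25 and 20 had the largest differences among the members called higher, of 4.06, 3.03 and 2.87. Ranks 10 and 20 passed the filter only through J, and of the 2 male arrays only M replicate 2 was above background. The differences of ranks 10 and 20 were −0.14 and −0.27 without M replicate 2, and both calls were also lost without F1 replicate 1 (3.80 and 2.82), F2 replicate 1 (3.83 and 2.75) and some other single arrays. The member of rank 25 had 8.61 and 11.77 in M, against 9.73, 8.87 and 8.43 in F1, 5.06, 8.05 and 8.16 in F2, and 5.56, 5.29 and 5.29 in F3 (limma adjusted p = 0.0125), so the groups overlapped, and its call was lost without M replicate 2 (difference 1.45). The 3 members lower in M were ranks 46, 42 and 40, and each was also lower in E3 than in females. Rank 46 had 3.82 and 4.44 in M (difference −2.59, SE 0.50, limma adjusted p = 0.000739) and the member of rank 42 had 3.72 and 6.23 (difference −2.07, SE 0.54, limma adjusted p = 0.00635), against at least 6.11 and 6.66 on every female array. M replicate 1 was below background for both, and M replicate 2 for rank 46. Rank 40 was lower by 1.16 (SE 0.28, limma adjusted p = 0.00408). Without M replicate 1 the calls of ranks 42 and 40 were lost (−0.82 and −0.88).

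**Figure D5:**
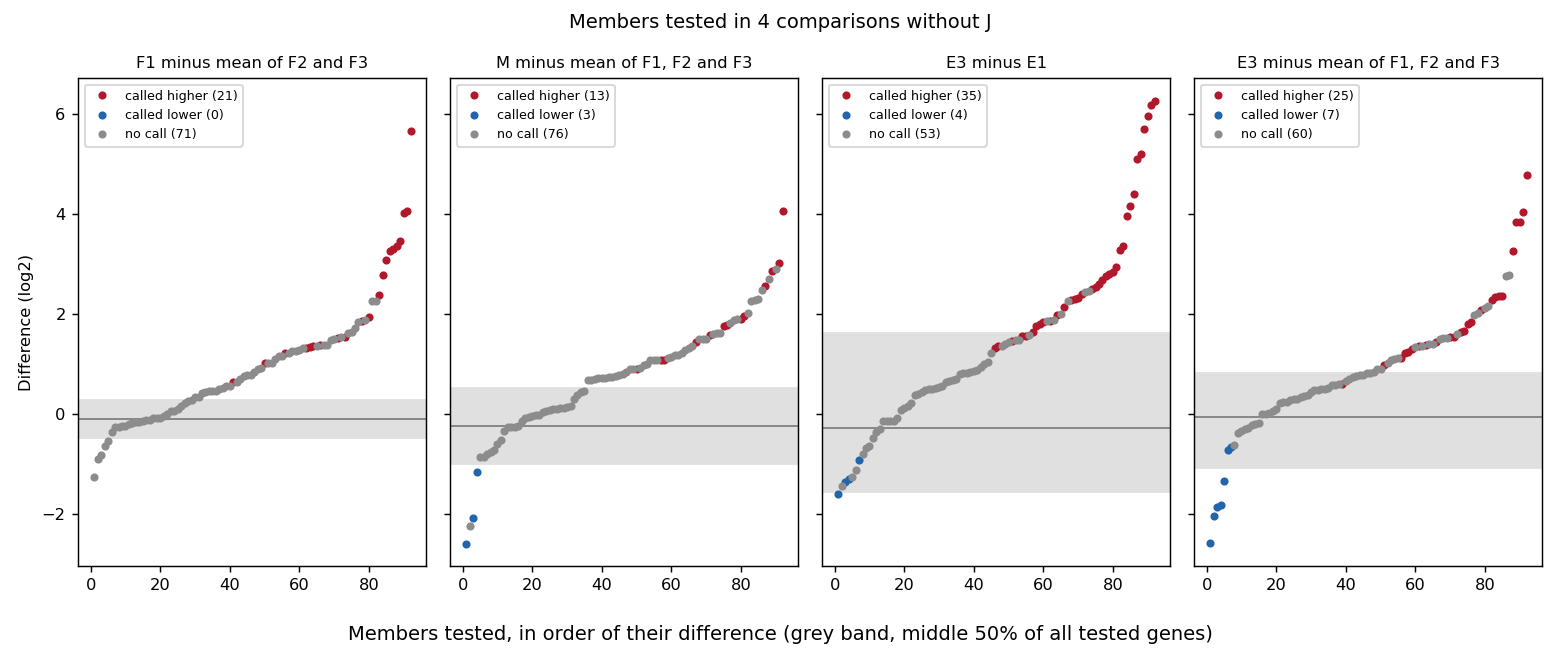
Log2 difference (y axis) of the 92 tested members in each of the 4 comparisons, in order of size (x axis), with called members in red (higher) and blue (lower), and the median (line) and quartiles (band) of all tested gene models in grey. In F1 against later females 21 members are called higher and 0 lower, and in all 4 panels most members lie above the median of all gene models.

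The E3 and female arrays entered more than 1 comparison, so the comparisons are not independent. Of the members called higher, 14 were shared by F1 against later females (21) and E3 against E1 (35), which use different arrays but a shared spread. These are 66.7% of the one, where the share over all tested gene models was 64.6%, and 14 of 35 in the other, where it was 18.0%. Members were called higher in F1 more often than all tested gene models (22.8% against 8.66%). The second pair of shares was not corrected for this, so nothing is read from it.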

How the data were processed

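Total RNA of whole animals from 7 life stages was hybridised to single-colour Agilent arrays, 3 for each stage and 2 for males. For every array the authors deposited Feature Extraction output (version 10.5.1.1 in the files), in which the processed signal is a background-corrected intensity on a linear scale. They also deposited a matrix of log2 values, quantile normalized and centred so that each probe has a median of 0. No label or method names the cultures behind the replicates, so p-values measure only the spread between these samples, which may be technical.

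Members were chosen on the deposited log2 matrix, as the median over probes of the stage means. All other values are log2 of the deposited intensity, with control spots and spots marked as outliers left out, spots of a probe averaged, arrays quantile normalized, and the median taken over the probes of a gene model. A gene model was tested when it exceeded the 95th percentile of the random probes on every array of at least 1 stage (18654 gene models). All 20 arrays entered 1 fit with 7 groups (limma 3.58.1, lmFit and eBayes, two-sided, R 4.3.3, with data.table, version 1.17.8), after a test on simulated data, with Benjamini-Hochberg adjustment over all gene models tested. Figures were drawn with matplotlib 3.10.9 in Python 3.11.15, which also handled the data (numpy 2.4.6, pandas 2.3.3).

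The members, comparisons and lists were chosen with earlier results of these data known. Named members are the 10 with the widest gaps, the last 3 inside and the first 3 outside, and for each comparison the 3 called members with the largest difference in each direction. Ranks 11, 18 and 19 were named after their values were seen. Replicate numbers did not pair the samples. The number of arrays limits the precision. Labels, the design text and the methods differ in the ages of E1, females and males, and the labels' ages are used. The design text lists 2 juvenile samples where the labels give 3, and the methods state 3 replicates where 2 male arrays were analysed here. No functional list was applied, since the table of names used here matched no identifier and the annotation of the array design was not used here, and no probe sequence was used here.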

Additional observations from a re-analysis of the deposited data

How the results depend on the processing

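In the 4 comparisons the values are the members called higher, of 92 tested in the main analysis. For F1 against F2 and F3 (21 members higher, 0 lower) the count was 13 with normexp, 10 with no filter on dim genes, 10 with the methods' t-test at an unadjusted p under 0.001, 13 with a fit on probes, and 39 without slide 1, an alternative chosen after seeing the data. It ranged from 6 (without F1 replicate 2) to 30 (without E3 replicate 1). For M against females (13 higher, 3 lower) it was 37 with a 75th percentile shift, 8 with no filter, 6 with slide and 8 with scan date as a block, 6 with the methods' t-test after Benjamini-Hochberg and 3 at its unadjusted p, and 42 without slide 1. It ranged from 5, with 11 lower (without M replicate 2), to 29 (without M replicate 1). The differences of ranks 10 and 20 turned to −0.14 and −0.27 without M replicate 2, and were 8.26 and 6.00 without M replicate 1. For E3 against E1 (35 higher, 4 lower) it was 14, with 9 lower, with a 75th percentile shift, 8 with the methods' t-test after Benjamini-Hochberg and 0 at its unadjusted p, and 23 (without E3 replicate 2) to 46 (without E3 replicate 1). For E3 against females (25 higher, 7 lower) it was 0, with 4 lower, with the methods' t-test at its unadjusted p, and 8 (without E3 replicate 2) to 45 (without E3 replicate 1). The cause of these changes was not tested. With the replicate number as a block 22, 14, 35 and 26 members were higher in the 4 comparisons, and the block moved no count by over 1.5 times; replicates of the same number correlated with a mean r of −0.02 over 57 pairs, against 0.01 over 114 pairs of different numbers. Of the 100 members, 47 remained with a 75th percentile shift, 60 with normexp, 59 without slide 1, and 65 (without M replicate 1) to 100 (without F2 replicate 2) with 1 array left out, while each other alternative kept at least 77. On the dim arrays of slide 1 between 17.2 and 25.3% of probes were well above background, against at least 47.0% elsewhere, so low members are least well resolved there.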

Other observations

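The 2 loci with 2 members each gave transcripts that moved together over the 17 arrays outside J, with r = 0.90 for ranks 87 and 88 and r = 0.86 for ranks 14 and 64. Both values were below those of the 3 closest pairs of members, whose identifiers name different loci. Whether such identifiers name the same gene was not tested.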
